A study of Mus musculus with 8 samples.

Results

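A set of 176 array probes, from 154 genes, had its highest signal in the lungs of mouse embryos that both carried the SMRTmRID mutation and came from mothers fed propylthiouracil (PTU). The probes were chosen from the measured values, and other probes of the same genes often did not follow, as described below. In the normalized table that the authors deposited, the log2 mean of SMRTmRID with PTU had to exceed that of each of the other 3 groups by at least 1.5-fold. The probe also had to be detected on both SMRTmRID PTU arrays, at a detection p under 0.05, and to carry a gene symbol in the platform annotation. Of 25697 probes on the array, 196 met the margin and the detection requirement, which is 0.763% of them. Of these, 17 had no gene symbol and 3 belonged to symbols that were set aside, Acta1, Myh8 and Sec14l3. The remaining 176 probes make up the module. Its 154 genes are among 16593 genes named on the array and 10298 with a probe detected on both arrays of some group, and 19 of the 154 are in it with more than 1 probe.

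The arrays measured total lung RNA of C57Bl6/J E18.5 embryos, shortly before birth. The 4 groups were wild type and SMRTmRID, each on control chow and each with PTU. The mutant is also on the C57Bl6/J background and is called mRID below. For the PTU groups, the mothers' chow contained 0.15% PTU from E16.5, so that the exposure lasted 2 days. Each group had 2 Illumina bead arrays, A and B, which the labels name as technical replicates, so each group was taken as 1 RNA sample. How many embryos an RNA sample pooled is not stated. Every p-value below therefore covers array error and compares RNA samples, not genotypes or diets. In bulk tissue, fewer cells of a type and less RNA per cell cannot be told apart.

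Nuclear receptors recruit corepressor complexes to silence their target genes when no hormone is bound, and hormone binding releases these complexes. PTU blocks the synthesis of thyroid hormone, and thyroid hormone receptors are the classical example of receptors that repress without their hormone. Late gestation is when the lung epithelium matures for air breathing.

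The promoters below are those of Zc3h13, Irs2, Akap9 and Klf6. These 4 genes had the widest margins among module genes for which a promoter was found. Bbx, whose margin lay between those of Akap9 and Klf6, had none. The sequences are RefSeq's, of build GRCm38.p6. Each is the 250 bases before the listed transcription start, read 5′ to 3′ on the strand of the gene, and capitals mark an E-box (CACGTG).

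Zc3h13, chr14:75284116-75284365, plus strand: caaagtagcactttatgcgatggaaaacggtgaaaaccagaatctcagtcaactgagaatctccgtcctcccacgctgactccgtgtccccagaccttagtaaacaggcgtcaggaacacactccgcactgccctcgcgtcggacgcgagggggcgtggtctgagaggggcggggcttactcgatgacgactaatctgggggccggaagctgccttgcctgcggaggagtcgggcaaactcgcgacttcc
Irs2, chr8:11008930-11009179, minus strand: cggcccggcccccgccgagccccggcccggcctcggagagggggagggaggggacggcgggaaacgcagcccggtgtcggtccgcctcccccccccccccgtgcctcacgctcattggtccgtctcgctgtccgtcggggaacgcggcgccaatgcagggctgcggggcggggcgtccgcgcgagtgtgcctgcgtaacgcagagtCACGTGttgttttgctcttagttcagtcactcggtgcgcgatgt
Akap9, chr5:3927936-3928185, plus strand: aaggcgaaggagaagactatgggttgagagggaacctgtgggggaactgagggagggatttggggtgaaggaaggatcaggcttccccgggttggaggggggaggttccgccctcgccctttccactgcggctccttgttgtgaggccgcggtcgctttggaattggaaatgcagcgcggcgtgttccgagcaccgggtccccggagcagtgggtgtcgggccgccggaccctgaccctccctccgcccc
Klf6, chr13:5861239-5861488, plus strand: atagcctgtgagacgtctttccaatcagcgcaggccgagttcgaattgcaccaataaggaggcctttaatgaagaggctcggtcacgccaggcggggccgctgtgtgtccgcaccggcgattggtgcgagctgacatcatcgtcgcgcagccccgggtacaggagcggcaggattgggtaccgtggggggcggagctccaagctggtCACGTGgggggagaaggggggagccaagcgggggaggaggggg

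The G and C content is 59.2% for Zc3h13, 72.8% for Irs2, 65.6% for Akap9 and 64.8% for Klf6. The median over all promoters found was 59.6%, so that of Zc3h13 lies just below it. They hold 21, 34, 18 and 21 CpG dinucleotides in the same order. The E-box lies 44 bases before the start of Irs2 and 43 bases before that of Klf6. Zc3h13 and Akap9 had no match to any of the motifs searched.

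Promoters were found for 130 of the 154 genes and for 8333 of the genes with a kept probe. The median G and C content was 61.6% in the module and 59.6% over all, and the median number of CpG dinucleotides was 19 against 15. AGGTCA, the core hexamer of nuclear receptor sites, was present on either strand in 10 module promoters (7.69%) and in 10.5% of all promoters. Its direct repeat with 4 free bases between the copies, the classical thyroid hormone response element, was in 0 module promoters and in 0 of all. CACGTG was in 13 module promoters (10%, against 8.15%), TGACGTCA, the cyclic AMP response element, in 6 (4.62%, against 2.54%), and TATAAA in 9 (6.92%, against 7.12%). A match is a run of letters in this window and says nothing of whether a factor binds there.

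All levels and differences below are log2 of the normalized signal, computed from the authors' table of signals before normalization, and were therefore not the numbers that the choice was made on. They come from the same arrays, so they describe the module and do not test it. The margin of a probe is its mean in mRID with PTU minus the highest mean of the other 3 groups. Over the 176 probes the margin ran from 0.60 to 2.02 with a median of 0.95, and its quartiles were 0.81 and 1.16. For all 176 both mRID PTU arrays lay above the other 6 arrays, which was so for 9.22% of the 14066 named probes kept. A margin of at least 1.5-fold held for all 176 probes as well, against 1.91% of named probes kept, and 76 had a margin of at least 1. The median margin of the named probes kept was -0.13. Nothing is read from these counts, since the choice of probes fixed them.

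Zc3h13, a subunit of the complex that writes N6-methyladenosine on mRNA, had the widest margin. It read 6.31 and 6.37 in wild type on control chow, 6.14 and 6.25 in mRID on control chow, 6.22 and 5.86 in wild type with PTU, and 8.40 and 8.31 in mRID with PTU. Its mean in mRID with PTU was 4.05-fold that of the next group (2.02). The other 6 arrays stayed within 5.86 to 6.37, and the lowest of them was an array of wild type with PTU.

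Irs2, the adaptor that couples the insulin receptor to phosphatidylinositol 3-kinase, came next. Its arrays read 5.2 and 5.33 in wild type on control chow, 5.13 and 5.19 in mRID on control chow, 5.38 and 5.14 in wild type with PTU, and 7.19 and 7.13 in mRID with PTU. That is a margin of 1.89, or 3.72-fold, over a nearly flat background of the other 3 groups. Akap9, a scaffold of the Golgi and centrosome that anchors protein kinase A, read 5.64 and 5.49, 5.59 and 5.66, and 5.33 and 5.62 in the same 3 groups, and 7.32 and 7.46 in mRID with PTU (margin 1.76, 3.40-fold).

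Among the transcription factors, Bbx, an HMG-box protein, led with 6.13 and 6.10 in wild type on control chow, 6.22 and 5.82 in mRID on control chow, 5.88 and 5.97 in wild type with PTU, and 7.79 and 7.91 in mRID with PTU (margin 1.73, 3.32-fold). Klf6, a zinc-finger factor of the Kruppel-like family, read 6.13 and 6.0, 6.01 and 5.80, 5.73 and 5.63, and 7.70 and 7.84 in the same order (margin 1.71, 3.27-fold). Bach1, a haem-sensing repressor, read 5.33 and 5.12, 5.48 and 5.38, 5.34 and 5.31, and 6.96 and 7.08 (margin 1.59, 3.02-fold). The means of the other 3 groups spanned 0.38 for this Klf6 probe, and wild type with PTU was the lowest of them for Klf6 and for Bbx.

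Man2a2, a Golgi mannosidase that trims N-glycans, was in the module with 3 probes, at margins of 1.67, 1.28 and 1.08. The widest of them read 5.03 and 5.19, 5.39 and 5.40, 5.48 and 5.0, and 7.10 and 7.01 in mRID with PTU (3.17-fold). Ddx6, the RNA helicase of P-bodies, where mRNA is stored or decapped, also had 3 probes, at 1.59, 1.58 and 1.08. The widest of them read 5.85 and 6.0, 5.87 and 5.92, 5.88 and 5.84, and 7.58 and 7.45 (3.0-fold). Each of these probes was in the module by its own margin, so their agreement was fixed by the choice.

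Eif4ebp2, an inhibitor of cap-dependent translation that the TOR kinase switches off, read 6.85 and 7.02 in wild type on control chow, 6.98 and 7.12 in mRID on control chow, 6.66 and 6.57 in wild type with PTU, and 8.57 and 8.60 in mRID with PTU (margin 1.53, 2.90-fold). Lims1, an adaptor of focal adhesions also known as PINCH1, read 5.48 and 5.57, 5.30 and 5.58, and 5.23 and 5.54 in the other groups. Its 2 mRID PTU arrays were far apart, at 6.70 and 7.45, so its margin of 1.55 (2.93-fold) carries a larger array error. The difference between the 2 mRID PTU arrays had a median of 0.10 over the module and a largest value of 0.78, against a median of 0.11 over the named probes kept.

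Among probes detected on all 8 arrays, the next by margin were Epm2aip1 and Atxn1. Epm2aip1, which encodes a protein that binds laforin, read 7.17 and 7.29, 7.52 and 7.57, 7.60 and 7.63, and 9.05 and 9.06 (margin 1.44, 2.72-fold). Atxn1, which acts with the repressor capicua, read 6.14 and 5.91, 5.79 and 5.82, 5.94 and 5.78, and 7.30 and 7.54 (margin 1.39, 2.62-fold). In Epm2aip1 wild type on control chow was the lowest group, while in Atxn1 it was the highest of the other 3.

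**Figure D1:**
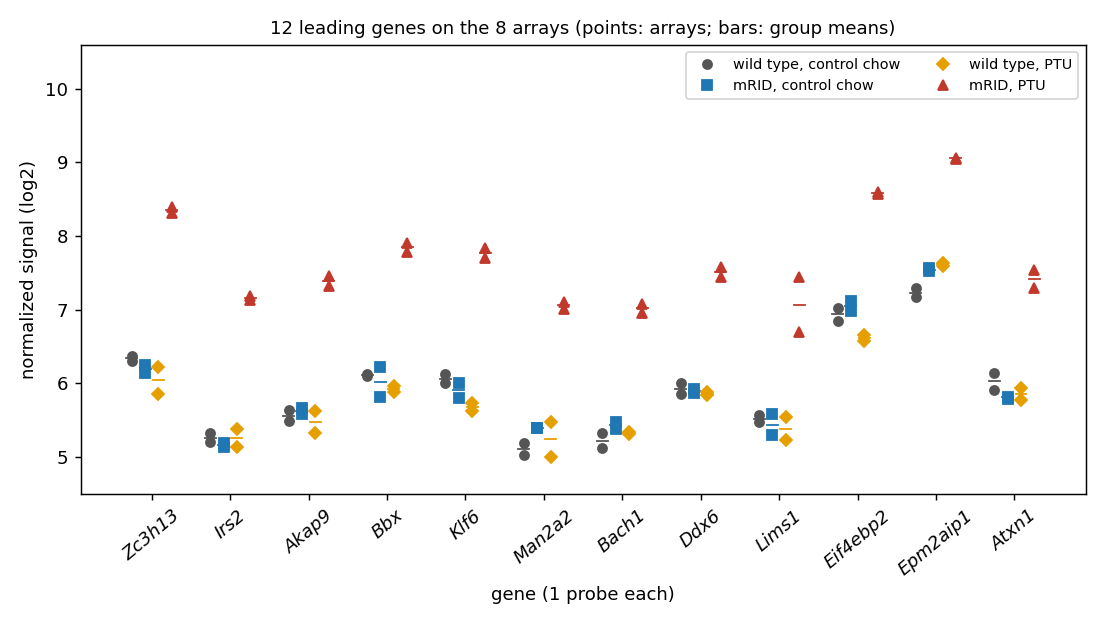
Normalized log2 signal (vertical axis) of the 12 genes with the widest margins among probes detected on all 8 arrays, 1 probe a gene; symbols are arrays, coloured by group, and short bars are group means. The mRID PTU triangles lie above all other symbols of the gene, which is what the choice of probes required, and those of Lims1 are the widest apart of the 12.

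Some probes were below detection in whole groups, so that only a bound on the fold can be given. There were 11 probes undetected on both arrays of at least 1 other group, and 1 undetected on all 6 other arrays. A second Ddx6 probe was at least 3.72-fold higher in mRID with PTU than in mRID on control chow, and the remaining one was at least 2.60-fold higher than in wild type with PTU. Foxj3, a forkhead factor, was at least 2.29-fold and Ppargc1a, the coactivator of mitochondrial genes PGC-1alpha, at least 2.10-fold higher than in wild type with PTU. Tmem138, a protein of the primary cilium, was at least 2.14-fold higher than in wild type on control chow. These bounds set the bright group's mean against the lowest signal of any detected probe on the dim arrays. By contrast, 155 of the 176 probes were detected on all 8 arrays, and 6 had been kept for testing through the mRID PTU arrays alone.

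At the edge of the choice the values ran on without a gap. Just inside, on the deposited log2 scale, were Upf1 at 0.5854, Frk at 0.5907 and Grip1 at 0.5913. Just outside were Atp8a1 at 0.5804, Rsrc1 at 0.5785 and Btbd9 at 0.5737. On the scale used here the 3 inside had margins of 0.80, 0.85 and 0.81, and the 3 outside 0.73, 0.66 and 0.83. Of the symbols set aside, Acta1, the skeletal muscle actin, had a margin of 1.54, Myh8, a perinatal myosin heavy chain, 1.07 and Sec14l3, a lipid-binding protein of airway epithelium, 0.75.

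The genes were grouped by known role after their values had been seen, so the groups only order the description. The largest groups were 25 transcription factor genes, 24 signalling genes, 23 genes of RNA processing, decay or translation, and 20 genes of chromatin and coregulators. Another 14 genes encode adhesion, cytoskeleton or matrix proteins, 9 act in lipid metabolism, 7 in the Golgi and membrane traffic, 4 are ubiquitin ligases, 3 are channels or transporters and 2 are plasma proteins of the liver. The other 23 fell in none of these. Median margins lay close together, from 0.84 for signalling to 1.08 for the Golgi and membrane traffic, beside the ranges within groups. For RNA processing, decay or translation the range was 0.69 to 2.02 around a median of 1.03, and for signalling it was 0.66 to 1.89. Genes named below by role and not by an earlier rule, E2f2, Zeb2, Mef2c, Stat3, Pcyt1a, Pank3, Lpin2, Stard4, Col1a2 and Wnt5a, were picked after their values were seen.

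**Figure D2:**
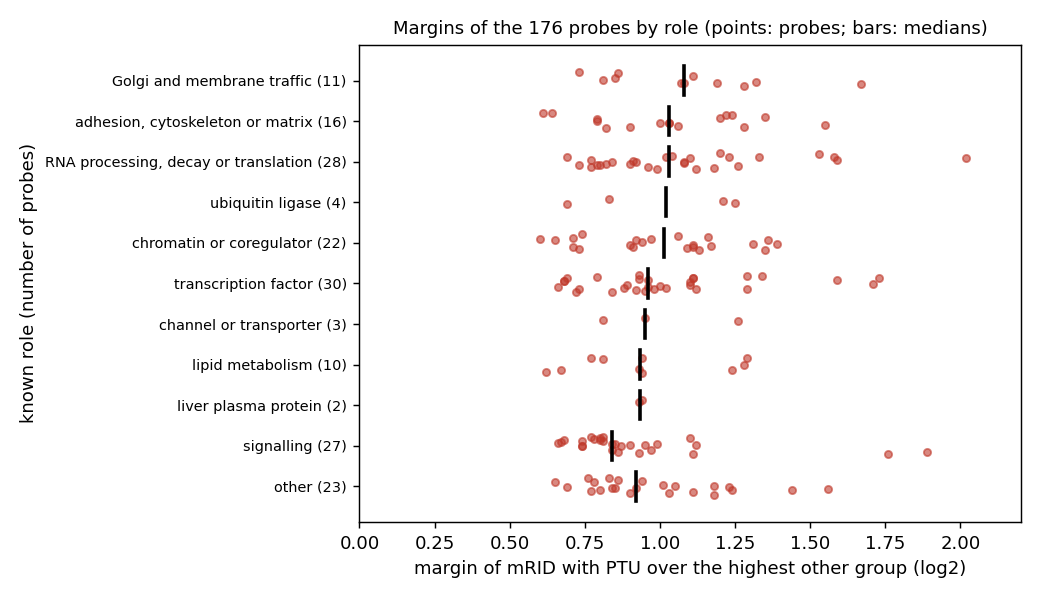
Margin of each of the 176 probes over the highest other group (log2, horizontal axis) by known role, with the number of probes in brackets; points are probes, scattered vertically for legibility, and black bars are medians. The medians lie between 0.84 and 1.08 while single roles span up to 0.69 to 2.02.

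Within the transcription factors, E2f2, a driver of the cell cycle, had 2 probes at margins of 1.29 and 0.95. Mef2c, a factor of muscle and endothelial cells, had 3 at 0.98, 0.96 and 0.89. Zeb2, a repressor of epithelial genes, stood at 1.29, with 8.98 and 8.96 in wild type on control chow, 8.73 and 8.96 in mRID on control chow, 8.70 and 8.76 in wild type with PTU, and 10.30 and 10.23 in mRID with PTU. Stat3, the effector of interleukin-6 family cytokines, stood at 0.73, with 9.34 and 9.42, 9.51 and 9.58, 9.15 and 9.28, and 10.27 and 10.27. For both of these probes, the highest of the other 6 arrays was below the 2 mRID PTU arrays. Stat3 also had further kept probes outside the module, at margins of 0.57 and -0.28. The mean of the second was lowest in mRID with PTU.

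In the group of RNA genes, Luc7l3, a splicing factor of the U1 particle, read 10.74 and 10.75, 10.57 and 10.57, 10.56 and 10.55, and 11.98 and 11.98 (margin 1.23). Cnot4, a ubiquitin ligase of the CCR4-NOT deadenylase, had probes at 1.33 and 0.77. Tnrc6b, a GW182 protein that links Argonaute to deadenylation, stood at 0.92 and Upf1, the helicase of nonsense-mediated decay, at 0.80.

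Chromatin genes on a list had smaller margins than the leaders. Chd4, the ATPase of the NuRD complex, stood at 1.16, Ezh2, the methyltransferase of Polycomb complex 2, at 0.97 and Smarca2, an ATPase of the SWI/SNF complex, at 0.71. In lipid metabolism Pcyt1a, the rate-limiting enzyme of phosphatidylcholine synthesis and so of surfactant lipid, stood at 1.29, with 7.61 and 7.60 in mRID with PTU against 6.03 to 6.35 on the other arrays. Pank3, of coenzyme A synthesis, and Lpin2, a phosphatidate phosphatase, stood at 1.28 and 1.24, and Stard4, a carrier of cholesterol, at 0.67. In the matrix group Col1a2, a chain of type I collagen, stood at 1.00.

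The choice of probes did not use the differences among the other 3 RNA samples, and these were tested. It did use each of their means as a ceiling, which disfavours probes that are high in any of them. The 176 also include 6 probes kept through the mRID PTU arrays alone, and Ttr is 1 of these. The question was whether the mutation or PTU, each without the other, moved the same probes. With limma over all 14965 kept probes, a probe passed when it differed at least 1.5-fold at an adjusted p (Benjamini-Hochberg) under 0.05. On control chow, 1 of the 176 probes was higher in mRID than in wild type, that of Elmo1, beside 0.448% of all probes kept. In the other direction 0 of 176 passed, beside 0.976%. With PTU in wild type, 1 probe was higher, that of Ahsg, beside 1.03% of all probes kept, and 1 was lower, a probe of Klf6, beside 2.33%. With 1 probe being 0.568% of the module, these shares were near or below the background. The Elmo1 call was lost without wild type control array B (0.44) or either mRID control array, and on the deposited values (0.43). The Ahsg call was lost without wild type control array A (0.63) or wild type PTU array B (0.51), and on the deposited values (0.51). The Klf6 call passed in all settings run, and the number of lower probes was 2 without wild type control array A or wild type PTU array A, 4 without wild type control array B and 5 without wild type PTU array B.

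The module's differences in these comparisons were small. For mRID minus wild type on control chow they ran from -0.57 to 0.62 with a median of 0.04, against a median of 0.01 over the named probes kept, and 106 were positive and 70 negative. For PTU minus control chow in wild type they ran from -0.66 to 0.67 with a median of -0.09, against 0.01, and 53 were positive and 123 negative. The means of the other 3 groups spanned 0.23 at the median probe, against 0.20 over the named probes kept, and never more than 0.76 in the module. Among those 3 groups, mRID on control chow was the highest for 91 probes (51.7%, against 28.6% of the named probes kept). Wild type on control chow was the highest for 55 (31.2%, against 34.4%) and wild type with PTU for 30 (17%, against 37%). Wild type with PTU was the lowest for 111 (63.1%, against 32.4%), wild type on control chow for 38 (21.6%, against 38.7%) and mRID on control chow for 27 (15.3%, against 28.9%). Both comparisons subtract wild type on control chow, so their counts are not independent.

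**Figure D3:**
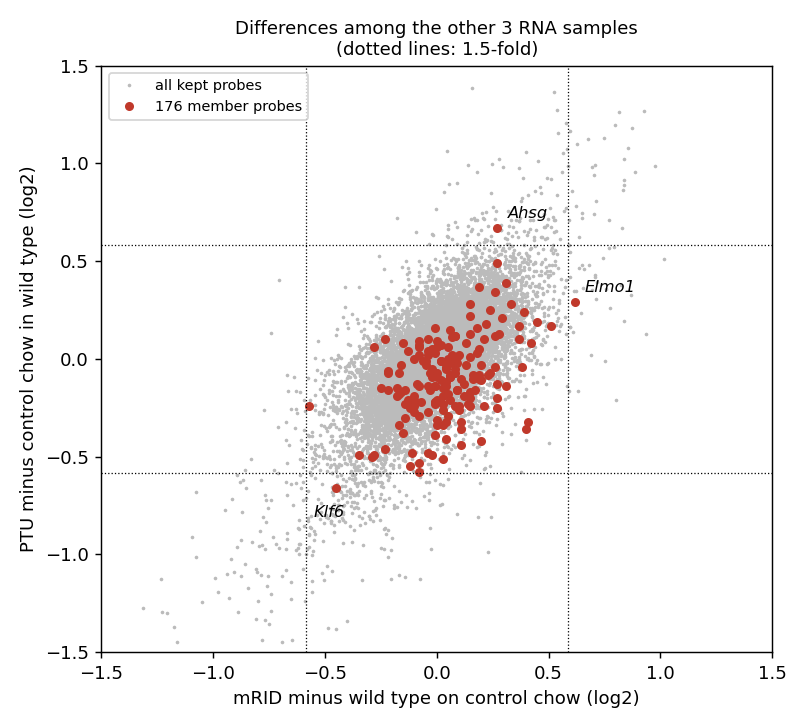
Difference of mRID and wild type on control chow (horizontal axis, log2) against that of PTU and control chow in wild type (vertical axis, log2) for all kept probes (grey) and the 176 probes of the module (red); dotted lines mark 1.5-fold and 43 kept probes outside 1.5 on either axis are not drawn. Both axes subtract wild type on control chow, which alone tilts the cloud, and the module lies inside the dotted lines but for Elmo1, Ahsg and Klf6.

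Klf6 was the clearest case of a probe that went the other way with PTU alone. Its second probe read 9.67 and 9.73 in wild type on control chow, 9.19 and 9.33 in mRID on control chow, 9.05 and 9.04 in wild type with PTU, and 10.76 and 10.65 in mRID with PTU. It was thus lower with PTU in wild type by a log2 difference of -0.66 (SE 0.09, limma adjusted p = 0.00136), and the arrays of the 2 groups did not overlap. On control chow it was also lower in mRID (-0.45, limma adjusted p = 0.0281), short of 1.5-fold, and in mRID with PTU it stood 1.00 above the highest of the other 3 groups.

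Other probes leaned the same way with PTU in wild type but missed 1.5-fold. Sptbn1, a spectrin of the membrane skeleton, differed by -0.58 (limma adjusted p = 0.00208) and Sparc, a collagen-binding matrix protein, by -0.55 (limma adjusted p = 0.0118). Klf7, a relative of Klf6, differed by -0.53 (limma adjusted p = 0.00735) and Zfp326, a splicing-coupled zinc-finger protein, by -0.51 (limma adjusted p = 0.0204). Sptbn1 read 8.32 and 8.35 in wild type on control chow, 7.80 and 7.72 in wild type with PTU, and 9.72 and 9.66 in mRID with PTU. In these 4 probes mRID with PTU was the highest and wild type with PTU the lowest of the 4 groups, which did not hold for the further probes of Sptbn1 and Sparc. The 2 further probes of Sptbn1 had margins of -0.06 and -0.09.

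Ahsg, which encodes the liver plasma protein fetuin-A, went up with PTU in wild type. Its arrays read 4.22 and 4.30 in wild type on control chow, 4.39 and 4.69 in mRID on control chow, 4.77 and 5.10 in wild type with PTU, and 5.87 and 5.88 in mRID with PTU. The difference in wild type was 0.67 (SE 0.13, limma adjusted p = 0.00889), or at least 1.3-fold since the probe was undetected in wild type on control chow. Ttr, the thyroid hormone carrier transthyretin, differed by 0.37 in wild type (limma adjusted p = 0.0434), short of 1.5-fold. It too was undetected in wild type on control chow, so the difference is at least 1.09-fold. In mRID with PTU, Ahsg was at least 2.48-fold above wild type on control chow. Ttr was at least 2.07-fold above wild type and at least 1.97-fold above mRID on control chow.

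Both are liver genes, and the liver list was therefore read as a whole. Of its 16 genes, 8 had a kept probe, and their summed signal was 3700 to 4180 in wild type on control chow, 3930 to 4390 in mRID on control chow, 3330 to 3350 in wild type with PTU and 2980 to 3490 in mRID with PTU. The sum is carried by Trf, the iron carrier transferrin, which read 11.46 to 12.08 over the 8 arrays. Gene by gene, the median difference of the 8 was 0.58 with PTU in mRID, beside -0.02 over all genes, and 0.47 for mRID over wild type with PTU, beside -0.04. Ahsg and Ttr were chosen on these comparisons, so their calls are not counted. Of the listed genes outside the module, 1 passed as higher with PTU in mRID, Fga, a fibrinogen chain, beside 1.38% of genes outside the module. For mRID over wild type with PTU 0 of them passed as higher, and in both comparisons 0 of the 8 were lower. Of the 8, Afp, Apoa1, Fga, Serpina1b and Ttr were kept through the mRID PTU arrays alone and so had to be higher there, and nothing is read from the medians and counts. Fga was undetected in mRID on control chow and at least 1.25-fold higher with PTU in mRID. Albumin (Alb), Ambp, Apoh, Fgb and Serpina1a were undetected on all 8 arrays. The part of liver RNA in the levels of Ahsg and Ttr was not tested beyond these values.

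The next highest differences with PTU in wild type were those of Samd4, a repressor of translation also called Smaug (0.49, limma adjusted p = 0.0513), Epm2aip1 (0.39, limma adjusted p = 0.0197) and the zinc-finger gene Zfp292 (0.34, limma adjusted p = 0.103). None of these module probes reached 1.5-fold. A brighter further probe of Epm2aip1, outside the module, read 9.15 and 9.17 in wild type on control chow and 10.23 and 10.34 in wild type with PTU. It read 9.84 and 9.83 in mRID on control chow and 10.08 and 10.1 in mRID with PTU. On control chow the next highest in mRID after Elmo1 were Synm, the intermediate filament synemin (0.51, limma adjusted p = 0.039), Erich5 (0.45, limma adjusted p = 0.0213), the zinc-finger gene Zfp157 (0.42, limma adjusted p = 0.0363) and Mfap3, a microfibril protein (0.41, limma adjusted p = 0.0437). The lowest was Smarca2 (-0.57, limma adjusted p = 0.0313), just short of 1.5-fold. Lipa, the lysosomal acid lipase, Cux1, a homeodomain factor, and Ptprf, a receptor tyrosine phosphatase, differed by -0.35, -0.29 and -0.28, with limma adjusted p-values of 0.142, 0.231 and 0.163.

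Elmo1, which with DOCK proteins activates Rac in migrating and engulfing cells, could be read with 12 kept probes. The module's probe read 5.46 and 5.10 in wild type on control chow, 5.97 and 5.84 in mRID on control chow, 5.53 and 5.61 in wild type with PTU, and 6.82 and 6.78 in mRID with PTU. On control chow the mRID RNA was higher by 0.62 (SE 0.12, limma adjusted p = 0.0197), with no overlap of the arrays. Of the 12 probes, 11 carry the same transcript accession, and 8 of these 11 passed for mRID over wild type on control chow, with differences of 0.0989 to 1.01 over the 11. With PTU in wild type 0 of the 11 passed, at differences from -0.374 to 0.575, all short of 1.5-fold. Of these differences, 0.575, 0.515 and 0.511 had limma adjusted p-values of 0.00399, 0.0161 and 0.02. The 12th probe, of another transcript accession, differed by 0.258 on control chow (limma adjusted p = 0.153).

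Of the 11 probes of the shared accession, 10 had their highest mean in mRID with PTU. Besides the module's own probe, at 0.90, the widest margins were 0.64, 0.64, 0.63 and 0.60, and the lowest was -0.04. The probe of the other accession lay at 10.31 and 10.25 in wild type on control chow, 10.49 and 10.58 in mRID on control chow, 10.38 and 10.49 in wild type with PTU, and 10.53 and 10.47 in mRID with PTU, where it did not stand out. The probes of 1 gene measure the same RNA samples, so they are not replicates of the comparison.

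**Figure D4:**
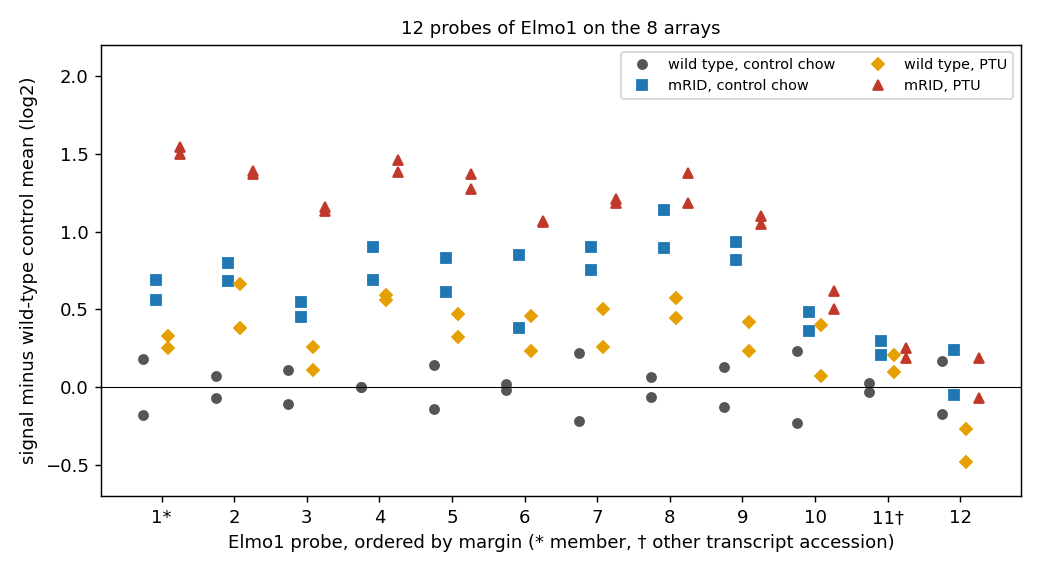
Signal of the 12 kept probes of Elmo1 on the 8 arrays, each as the log2 difference from that probe's mean in wild type on control chow (vertical axis), ordered by margin; the star marks the probe of the module and the dagger the probe of another transcript accession. For 10 of the 11 probes of the shared accession mRID with PTU is the highest group, and mRID on control chow lies above wild type on control chow in most.

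Other genes with several probes gave a mixed picture. Of the 154 genes, 76 had more than 1 kept probe, and in 14 of them every kept probe was in the module. In 37 of the 76 the kept probe of highest mean signal was in the module. The other 62 genes had 107 further kept probes outside it. Of these 107, 45 had their highest mean in mRID with PTU (42.1%), against 2887 of the 13783 kept probes of genes outside the module (20.9%). The median margin of the 107 was -0.04, against -0.13, and they ranged from -0.58 to 0.82, with 62 below 0. Any probe at or over the limit of the choice is in the module itself, so the further probes are what that limit left and their margins are cut off from above. A further probe each of Pex11a, H13 and Dhdh was detected on 2 arrays alone, those of mRID with PTU. These were kept through that group and so had to be highest there. Such probes were not taken out of either share, so the shares are a description.

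Elmo1 alone gave 11 of the 107 probes. Without it 34 of 96 had their highest mean in mRID with PTU, at a median margin of -0.08. In 33 genes all further probes had a margin below 0. The split was also present within transcripts. Of the 107 probes, 98, in 59 genes, carry the same transcript accession as a probe of the module, and 56 of them were below 0 at a median of -0.04. No probe sequences or positions were among the sources used here, so where the probes of a gene lie in the transcript is not analysed here.

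Among the genes with the widest margins on probes detected on all arrays, Akap9 and Epm2aip1 showed the split. The other leaders had no further kept probe outside the module, so the split could not be seen in them. For Klf6, Man2a2 and Ddx6, which had several module probes, every kept probe was in the module. The 2 further probes of Akap9 had margins of -0.09 and -0.11, against 1.76 for its module probe. The first of these 2 read 10.75 and 10.61 in wild type on control chow, 10.72 and 10.79 in mRID on control chow, 10.66 and 10.70 in wild type with PTU, and 10.61 and 10.72 in mRID with PTU. The mRID PTU arrays lay among the other arrays there. Epm2aip1 had further probes at -0.20 and -0.29, against 1.44, and both had their highest mean in wild type with PTU.

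Chd4, Upf1 and Luc7l3 also divided. The further probes of Chd4 stood at 0.22 and -0.16 against 1.16, those of Upf1 at -0.22 and -0.25 against 0.80, and those of Luc7l3 at -0.11 and -0.22 against 1.23. For Ezh2 the values were -0.26 against 0.97, and for Smarca2 -0.09 against 0.71. Wnt5a, a morphogen of lung mesenchyme, had a further probe with the same mean, 9.94, in mRID and in wild type with PTU, while its module probe had a margin of 1.12. Sparc had a further probe that stood lowest in mRID with PTU, at 12.38 and 12.35 against 12.71 and 12.70 in wild type on control chow.

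The lowest of all further probes was 1 of Polr1a, the largest subunit of RNA polymerase I, at -0.58, with another at -0.38, against 1.20 for its module probe. Rp9, H13 and Rrp1b followed at -0.42, -0.41 and -0.40, against 0.84, 1.05 and 0.73. H13 encodes signal peptide peptidase and Rrp1b a nucleolar protein. In these 4 genes, the sign of mRID with PTU against the other groups depends on which probe is read.

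At the other end, 9 further probes, from 6 genes, had a margin of at least 1.5-fold on the scale used here, beside 0.609% of the kept probes of genes outside the module. They came from Plpp3, a lipid phosphate phosphatase, at 0.82, Cux1 at 0.74, Grip1, a scaffold of glutamate receptors, at 0.69, Efcab14 at 0.66, Elmo1, and Wwc1, the Hippo pathway protein KIBRA, at 0.60. Cnot4 had a further probe at 0.57 and Pik3r1, the regulatory subunit of phosphatidylinositol 3-kinase, at 0.46. The Cux1 probe read 5.68 and 5.77, 5.54 and 5.54, 5.27 and 5.23, and 6.53 and 6.41 in mRID with PTU, with mRID with PTU highest and wild type with PTU lowest, as in its module probe. The same genes also had further probes that did not follow. Cux1 had others at 0.32, 0.07 and -0.01, and Efcab14 others at 0.00, -0.01 and -0.08.

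**Figure D5:**
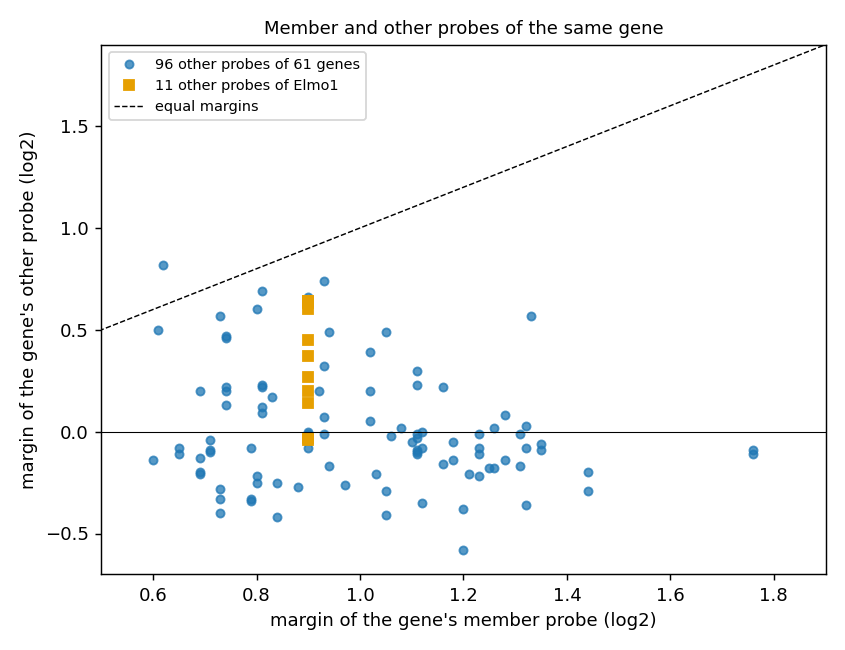
Margin of the gene's module probe (horizontal axis, log2) against that of each of its further kept probes (vertical axis, log2) for 107 probes of 62 genes, with the 11 of Elmo1 as squares; where a gene has several module probes, the widest is used. Points lie below the dashed line of equal margins but for 1, which is Plpp3, and 62 of the 107 lie below 0.

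Pathways that hold module genes were read through lists of genes with that role, chosen with earlier results of these data known. The 12 pathway lists held 225 tested genes, of which 17 are in the module. For the remaining 208, which the choice of probes passed over, the kept probe of highest mean signal stood for the gene. With PTU in mRID, 7 of the 208 were higher by limma (3.37%), against 1.38% of the 10144 genes outside the module and 2.51% of all 10298 genes. Lower was 1 of 208 (0.481%), against 0.828% of genes outside the module and 0.816% of all. For mRID over wild type with PTU, 11 of the 208 were higher (5.29%), against 2.38% and 3.51%, and 2 were lower (0.962%), against 0.67% and 0.66%. Both comparisons share the mRID PTU arrays. As these arrays also chose the module and the lists follow its genes, the shares are a description. Of the 7 and of the 11, Xrn1 and Ncoa2 had been kept through the mRID PTU arrays alone and so had to be higher there. On the deposited values 3 of the 208 were higher in each comparison, and without background correction 2 and 3.

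The insulin and TOR list had 26 tested genes, 4 of them in the module: Irs2, Eif4ebp2, Pik3r1 and Pdpk1. Pdpk1, the kinase that activates Akt, had a margin of 0.81, and Pik3r1 one of 0.74, at 10.23 and 10.15, 10.04 and 10.25, 10.25 and 10.22, and 10.93 and 11.02 in mRID with PTU. Of the other genes of this list 0 passed with PTU in mRID and 1 passed for mRID over wild type with PTU. That was Igf1r, the receptor of insulin-like growth factors (0.68, SE 0.14, limma adjusted p = 0.0118). Irs1, the paralogue of Irs2, differed by 0.08 with PTU in mRID (limma adjusted p = 0.745), and Eif4ebp1, the paralogue of Eif4ebp2, by -0.07 (limma adjusted p = 0.738). The median difference of the list was 0.02 with PTU in mRID and 0.08 for mRID over wild type with PTU, beside -0.02 and -0.04 over all genes.

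Among the 32 tested genes of mRNA decay and P-bodies, Ddx6, Cnot4, Tnrc6b and Upf1 are in the module. Xrn1, the exonuclease that degrades decapped mRNA, was detected on the 2 mRID PTU arrays alone, where it was at least 1.5-fold above mRID on control chow and at least 1.5-fold above wild type with PTU. Ago2 and Ago3, the Argonaute proteins that carry microRNAs, passed as higher in mRID than in wild type with PTU. Ago3 differed by 0.74, and Ago2, undetected in wild type with PTU, by at least 1.48-fold. Paip1, a partner of the poly(A)-binding protein, went from 8.90 and 8.80 in wild type on control chow to 7.46 and 7.36 in mRID on control chow. It read 4.62 and 4.69 in wild type with PTU and 5.40 and 5.54 in mRID with PTU, so it passed as lower with PTU in mRID and as higher in mRID than in wild type with PTU. The list median was 0.03 with PTU in mRID.

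Zc3h13 was the only module gene among 12 tested writers and readers of N6-methyladenosine. The writers Mettl3, Mettl14 and Wtap differed by 0.04, -0.19 and -0.07 with PTU in mRID, with limma adjusted p-values of 0.859, 0.225 and 0.808. Igf2bp1, a reader, was higher in mRID than in wild type with PTU (0.74, SE 0.12, limma adjusted p = 0.00228). Of the 30 tested genes of the splicing list, Luc7l3 and Akap9 are in the module, though Akap9 is the scaffold described above and not a splicing factor. Outside the module, the splicing factor Rbm39 was the 1 gene that passed with PTU in mRID, and 0 passed for mRID over wild type with PTU.

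Of 19 tested chromatin genes, Chd4, Ezh2 and Smarca2 are in the module, and Nsd1, Setd5 and Ncoa2 were higher with PTU in mRID. Nsd1, a histone H3 methyltransferase, differed by 0.84, and Ncoa2, a coactivator of nuclear receptors, was at least 1.5-fold higher over undetected arrays. Setd5 passed by 0.82, but its 2 mRID PTU arrays, at 7.26 and 7.04, overlapped those of wild type on control chow, at 7.24 and 6.97. The lists of focal adhesion, N-glycan processing and ataxin-1 with capicua held 20, 22 and 7 tested genes and 1 module gene each, Lims1, Man2a2 and Atxn1. Outside the module, 0 genes of these 3 lists were higher in either comparison, and Fermt1, a focal adhesion kindlin, was lower in mRID than in wild type with PTU.

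The lists nearest to the study's design held 0 module genes. Klf9 and Gpd2 were among the symbols set aside by name, but neither had a probe that met the margin and detection requirement. Of 12 tested corepressor genes, Tbl1x, a subunit of corepressor complexes, was higher with PTU in mRID (0.59, SE 0.12, limma adjusted p = 0.0104) and over wild type with PTU (0.66). Of 12 thyroid hormone responsive genes, Klf9 was higher in both comparisons, by 0.61 and 0.96. Gpd2 was higher in mRID than in wild type with PTU by 0.89, while Hr, a corepressor of the thyroid hormone receptor, was lower (-0.63). Of 13 circadian and 20 ubiquitin ligase genes, 0 passed in either comparison.

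Mean signals and shares of detected probes did not set the mRID PTU arrays apart, though its array B had the highest share. Mean signals ranged from 294 to 376 over the 8 arrays, at 309 and 335 for mRID with PTU, and 54.7% to 58.8% of probes were detected, at 56.4% and 58.8%. The correlation was 0.996 within groups and 0.988 to 0.994 between groups, a range that was not split by group. The median level of the module was 7.83 and 7.91 on the mRID PTU arrays and 6.58 to 6.81 on the other 6, while the median of the named probes kept was 7.06 or 7.07 on all 8. Type II pneumocyte markers, 13 of 13 with a kept probe, summed to 65600 to 67800 on all arrays.

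Other cell types differed between the RNA samples in their markers. Heart and skeletal muscle markers, 12 of 15 with a kept probe, summed to 4030 to 4240 in wild type on control chow, 2250 to 2260 in mRID on control chow, 1180 to 1270 in wild type with PTU and 1370 to 1390 in mRID with PTU. Type I pneumocyte markers, 9 of 12, summed to 37700 to 38200, 32000 to 33000, 30400 to 31600, and 35300 to 35800 in the same order. Endothelial markers summed to 18000 to 19000, 16100 to 16900, 15900 to 16100, and 17500 to 18300. Neural markers, 3 of 12, summed to 290 to 302, 210 to 220, 139 to 162, and 187 to 230. Macrophage markers, 10 of 12, summed to 9190 on both arrays, then 7330 to 8260, 6960 to 7190, and 8280 to 9410. Erythroid markers, 10 of 15, summed to 24400 to 25800, 25100 to 26400, 22900 to 23800, and 23900 to 25700. In these 6 lists the mRID PTU sums lay above those of wild type with PTU. The squamous, cartilage and trachea, and fat lists went the other way. Squamous markers, 9 of 10, summed to 1200 to 1300, 408 to 430, 563 to 572, and 373 to 406 in the same order. Cartilage and trachea markers, 5 of 12, summed to 408 to 428 in wild type with PTU and 352 to 402 in mRID with PTU. Fat markers, 2 of 10, summed to 3320 to 3460 and 2870 to 2980 there. Thymus and lymphoid markers, 4 of 15, went with the 6 lists, at 163 to 169 in mRID with PTU against 140 to 157 in wild type with PTU. Sums follow the brightest genes, and the medians over genes did not all lie the same way. For mRID over wild type with PTU the median difference was 0.29 for type I pneumocytes, 0.38 for the 3 neural genes, 0.10 for endothelium and -0.09 for macrophages, beside -0.04 over all genes. For erythroid genes it was -0.48, with 4 of 10 lower and 2, Alas2 and Hbb-b2, higher. With PTU in mRID it was -0.48 as well, with 4 lower and 0 higher. The muscle list had a median of 0 for mRID over wild type with PTU, with Myl3 lower, and of -0.51 with PTU in mRID, with 5 of 12 lower and 1, Mylpf, higher. Their part in the module's levels was not tested.

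The sex of the embryos could also differ between RNA samples. Xist, which is expressed from the inactive X chromosome, read 6.53 and 6.57, 6.63 and 6.75, 7.63 and 7.46, and 6.68 and 6.98 in mRID with PTU. The Y-linked Eif2s3y read 10.28 and 10.01, 10.09 and 10.13, 9.44 and 9.59, and 9.93 and 10.24. Wild type with PTU therefore stood apart, and mRID with PTU lay with the groups on control chow. Every comparison above that uses wild type with PTU carries this difference, and its part in their results was not tested. Of the 154 module genes, 3 are on the X chromosome (1.95%, against 3.2% of all genes), Amer1, Atp7a and Ddx3x, and 0 on the Y. The module was spread over the autosomes, and the most, 15 genes, lay on chromosome 11 (9.74%, against 8.62% of all genes).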

How the data were processed

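Values came from 8 Illumina bead arrays, 4 RNA samples on 2 arrays each. Trizol extraction, column clean-up with DNase and biotin labelling of cRNA are recorded per the labels' protocols, and GenomeStudio, with no version, per the submitters' processing notes. Per the file headers, one deposited table gives the average bead signal of every probe on every array, a linear intensity before normalization, with a detection p-value. The other deposited table holds intensity values on a linear scale that the authors had normalized, by a method the sources used here do not state.

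The module was chosen on log2 of the normalized table. Levels and tests used the other, corrected and quantile normalized with limma 3.58.1 (neqc, offset 16) in R 4.3.3. A probe was kept if some group had it detected (p under 0.05) on both its arrays, and the 14965 kept were fitted with a mean per group (4 residual degrees of freedom, prior 6.27), with Benjamini-Hochberg adjustment over all of them. Fits were tested on simulated data. Comparisons that chose the probes were not tested for them.

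The members and the 25 lists were chosen with earlier results of these data known. Genes named were the 12 widest margins among probes detected on all arrays, the 5 widest among those undetected in another group, list members, the 5 highest and 5 lowest in each free comparison, genes whose further probes were widest or lowest, and the probes at the limit. Of the probes, 23978 had 1 gene symbol, 0 several and 1719 none. Promoters are RefSeq's, matched by gene identifier. Alternatives were other background correction, scaling, sources, filters and limits, a replicate block, and each array left out. The number of arrays limits the precision.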

Additional observations from a re-analysis of the deposited data

Results flagged for a closer look

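Beside the named genes, 17 probes with no gene symbol met the margin and detection requirements in mRID with PTU, and no comparison above uses them. They were picked out because they carry a signal outside the named probes. Their margins ran from 0.70 to 2.32. The widest read 4.81 and 5.10 in wild type on control chow, 4.76 and 5.17 in mRID on control chow, 4.67 and 4.84 in wild type with PTU, and 7.35 and 7.23 in mRID with PTU, wider than any named probe. It has no gene name in the annotation used here.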

How the results depend on the processing

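The number of probes chosen was 176, and 266 with the same limits on the values computed here or with median scaling, and 38 with a margin of at least 1. Leaving out 1 array gave 169 to 187. All 176 were among the 266 of the first setting (66.2% of it), 172 among those with median scaling, and without background correction 149 were chosen, all of them among the 176. The other settings for this number stayed within 1.5 times.

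Among the free comparisons, the Elmo1 call (1 probe) became 0 without background correction, with median scaling, on the deposited values, and without wild type control array B or either mRID control array (range 0 to 1 with an array left out, with 0 lower throughout). Its difference stayed positive, from 0.35 to 0.8. With median scaling 1 probe, of Smarca2, was lower. With PTU in wild type the 1 higher call, Ahsg, became 0 without background correction, on the deposited values, and without wild type control array A or wild type PTU array B, and 2 without wild type control array B. The 1 lower call became 2 with median scaling, 2 without wild type control array A or wild type PTU array A, 4 without wild type control array B and 5 without wild type PTU array B, so the ranges were 0 to 2 and 1 to 5. The cause was not tested.

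With the replicate number as a block on the deposited values, 0 probes were higher in mRID on control chow and 0 with PTU in wild type, as without the block on those values. Same-numbered arrays did not deviate together (r from -0.061 to 0.117), so the numbers do not pair the samples. For further probes, 43 to 51 had their highest mean in mRID with PTU with an array left out.

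For the lists with PTU in mRID, 7 higher became 2 without background correction and 3 on the deposited values (6 to 8 with an array left out), and 1 lower became 2 without mRID PTU array A (1 to 2). For mRID over wild type with PTU, 11 higher became 3 and 3 (9 to 12), and 2 lower became 0 and 0, and 1 without mRID PTU array A (1 to 3). No difference of a single probe that was followed through the settings turned its sign. The planned fit over 4 averaged RNA samples was not run, because each of its terms includes the mRID PTU RNA that chose the probes.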
